A study of Mus musculus with 10 samples.

Results

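The interferon-stimulated genes of bone endothelium were read as a list of 43 genes among the 26504 gene symbols in the tables. 22 of them are best known as targets of type I interferon and 21 as targets of interferon gamma, although many answer to both. They were measured as unique molecular identifiers (UMIs, 1 per captured transcript) in endothelial cells (ECs) that had 500 to 6000 detected genes, under 25% mitochondrial UMIs, at least 2 UMIs of the pan-endothelial genes Cdh5, Pecam1, Egfl7 and Kdr together, and no UMI of the leukocyte gene Ptprc. Of 47466 barcodes, 44640 met these limits.

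Interferons are secreted proteins that warn tissues of infection. Type I interferons signal through the receptor chains Ifnar1 and Ifnar2 to a complex that includes Stat2 and Irf9 and binds the interferon-stimulated response element. Interferon gamma signals through Ifngr1 and Ifngr2 to the gamma-activated site in its target genes, and induces the transcription factor Irf1. The targets of the first path include antiviral effectors and RNA sensors. Those of the second include the guanylate-binding proteins (Gbp genes), the immunity-related GTPases (Iigp1, Igtp, the Irgm and Tgtp genes) and the chemokines Cxcl9, Cxcl10 and Cxcl11, which attract lymphocytes bearing Cxcr3. Endothelial cells respond to both interferons.

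The cells came from femur and tibia of Cdh5-mTnG mice, a line in which the endothelial Cdh5 promoter drives a fluorescent reporter, and were sorted as GFP+ tdTomato+ after haematopoietic cells had been depleted. There were 5 groups with 2 libraries each: juvenile mice of 3 weeks, both sexes, adult females of 12 weeks, aged females of 75 weeks, and 12-week females given parathyroid hormone (PTH), which stimulates bone formation, or alendronate, which restrains osteoclasts. The labels give the adult group no treatment, and both treated groups and both other ages were set against these same 2 adult libraries. Animals were pooled, so the tests measure the spread between 2 libraries of a group and not between animals. Kit version (V2 or V3 of the 10x platform, not given by group) and, for juvenile mice, sex cannot be told apart from age. The aged tables held 22735 and 22736 symbols, against 19039 to 20912 in the others, and only they held symbols beginning with U. This difference between tables cannot be told apart from age either.

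The tables held 10653583 to 28419323 UMIs each. Between 2141 and 7460 ECs per library remained, and the median UMIs per EC were 4892 or more in the aged libraries and 4204 or fewer in the others. Both extremes were PTH libraries: replicate 1 had 2141 ECs at a median of 4139 UMIs, and replicate 2 had 7460 at 3172. Libraries of a pair shared at most 88 barcodes (1.47%). Clustering that left out 220 interferon and MHC genes gave 18015 bmEC-like cells (bone marrow sinusoids, type L), 9426 mpEC-like cells (metaphyseal type H capillaries), 7116 aEC-like cells (arteries), 4358 rEC-like cells (type R post-arterial capillaries) and 588 pEC-like cells (proliferating). The aged libraries held too few pEC-like cells to be summed. The rEC-like class was not uniform: 1508 of its cells formed a cluster led by Tagln, Vwf, Lgals3 and Cpe with a marker score of 1.44, against 3.99 and 4.10 for its other clusters. The mpEC-like class was uneven too: 3913 of its cells formed a cluster with a marker score of 0.475, against 1.80 and 1.66 for its other clusters, and Rsad2 was among the genes that led it. At a coarser clustering (resolution 0.5) the rEC-like class held 2797 cells, and the lymphatic one 1889 in place of 363. Class make-up moved with the groups: bmEC-like cells were 48.9 to 49.5% of adult, 20.7 to 21.2% of aged and 56.4 to 58.2% of juvenile ECs, so each comparison is given over all ECs and within classes. Sums over all ECs also held 3432 unnamed cells (median 1269 UMIs), 632 erythroid-like, 407 haematopoietic-like, 363 lymphatic-like and 303 mural or mesenchymal-like cells. Unnamed cells were 6.9 to 7.53% of adult and 9.82 to 11.19% of aged ECs. Haematopoietic-like cells were 1.25 to 1.83% of adult and 0.17 to 0.22% of aged ECs. In such sums, fewer cells of a type and less RNA per cell cannot be told apart. Rose, fell, higher and lower are written of members with an adjusted p under 0.05 (edgeR quasi-likelihood test, Benjamini-Hochberg over all genes tested), and changes are on the log2 scale with their standard error (SE).

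The bases before the start site of 6 members are shown because they hold, between them, each of the letter patterns searched for, and because the members behaved differently below. Of the 43 members, 33 had an entry in the RefSeq promoter table (GRCm38.p6), which covers 250 bases before to 50 after the start of 27025 genes. The 250 bases before the start are printed 5′ to 3′ on the gene's own strand. Capitals mark GAAA-NN-GAAA (the interferon-stimulated response element), TTCNNNGAA (the gamma-activated site) and GGGANTTCC (a kappaB site), each searched on both strands. They lie at chr4:156200819-156201068 (minus) for Isg15, chr19:34640639-34640888 (plus) for Ifit1, chr11:53769764-53770013 (plus) for Irf1, chr11:58199306-58199555 (plus) for Igtp, chr5:92328080-92328329 (minus) for Cxcl9 and chr5:92348890-92349139 (minus) for Cxcl10.
Isg15: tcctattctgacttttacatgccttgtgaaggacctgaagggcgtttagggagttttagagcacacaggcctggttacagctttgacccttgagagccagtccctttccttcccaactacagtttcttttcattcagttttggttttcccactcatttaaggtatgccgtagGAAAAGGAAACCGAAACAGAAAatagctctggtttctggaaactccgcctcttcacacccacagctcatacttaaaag
Ifit1: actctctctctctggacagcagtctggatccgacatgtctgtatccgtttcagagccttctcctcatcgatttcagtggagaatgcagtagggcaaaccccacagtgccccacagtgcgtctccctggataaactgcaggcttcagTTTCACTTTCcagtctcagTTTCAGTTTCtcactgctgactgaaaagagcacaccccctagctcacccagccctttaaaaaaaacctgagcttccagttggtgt
Irf1: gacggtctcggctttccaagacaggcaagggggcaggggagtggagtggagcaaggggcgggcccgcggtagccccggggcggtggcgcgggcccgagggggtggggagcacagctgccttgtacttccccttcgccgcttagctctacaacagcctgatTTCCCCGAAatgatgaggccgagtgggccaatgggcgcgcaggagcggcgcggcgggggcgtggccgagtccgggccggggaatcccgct
Igtp: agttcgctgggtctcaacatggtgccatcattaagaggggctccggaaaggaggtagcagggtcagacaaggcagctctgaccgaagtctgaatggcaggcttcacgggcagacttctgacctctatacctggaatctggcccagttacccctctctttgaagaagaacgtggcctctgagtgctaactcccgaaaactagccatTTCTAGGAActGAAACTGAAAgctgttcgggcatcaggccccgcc
Cxcl9: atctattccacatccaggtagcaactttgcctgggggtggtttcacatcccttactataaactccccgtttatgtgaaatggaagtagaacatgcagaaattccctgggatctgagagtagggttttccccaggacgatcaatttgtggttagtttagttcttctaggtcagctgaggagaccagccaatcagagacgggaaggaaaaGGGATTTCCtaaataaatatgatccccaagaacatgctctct
Cxcl10: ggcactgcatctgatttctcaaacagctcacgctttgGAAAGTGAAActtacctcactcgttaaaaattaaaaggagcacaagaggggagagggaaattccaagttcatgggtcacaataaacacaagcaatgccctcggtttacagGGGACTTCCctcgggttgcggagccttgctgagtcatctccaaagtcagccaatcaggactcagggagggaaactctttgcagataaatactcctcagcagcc

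In Isg15, which encodes a ubiquitin-like modifier, 3 overlapping response elements ran from base -78 to -57 before the start. In Ifit1, whose product binds foreign RNA, 2 of them lay at -104 to -95 and -85 to -76. Irf1 held the gamma-activated site alone (-90 to -82) and Igtp, an immunity-related GTPase, held that site at -45 to -37 beside a response element at -34 to -25. Cxcl9 showed only the kappaB letters (-42 to -34), and Cxcl10 had them at -103 to -95 with a response element at -213 to -204. Over the 33 members, the response element letters stood in 9 of 18 type I and 12 of 15 gamma windows, against 3.99% of all windows. The gamma-activated letters stood in 2 of 18 and 8 of 15, against 9.55%, and the kappaB letters in Cxcl9 and Cxcl10 alone, against 1.92%. A match is a description of letters and not evidence of binding.

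All 43 members had UMIs, at very unequal levels. Bst2, which tethers budding virus to the cell surface, was the highest with a mean of 741 CPM over the 10 libraries (CPM are UMIs scaled to an equal, TMM-adjusted library total). Iigp1 followed with 277 CPM, then Rtp4, Isg15, Rsad2 (an antiviral enzyme), Ifi47, Parp14, Gbp7, Cxcl9, Irgm1, Xaf1 and Irf1. Of 19 interferon genes themselves, 5 were listed in the tables and these had 18 UMIs in all 10 libraries, 15 of them Ifne and 2 of them Ifng. The receptors were plainly present, with Ifngr1 at 372 and 375 CPM and Ifnar1 at 52.3 and 52.7 CPM in the adult libraries.

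When each cell was thinned to 1000 UMIs, a UMI of Bst2 was found in 49.0% of 42878 cells, of Iigp1 in 18.3% and of Rtp4 in 15.3%. The same measure in 255 Ptprc-positive cells that lacked the endothelial genes served as a background. Of the members, 16 stood above the upper exact binomial limit of that background, 24 within it, and Zbp1, Trim30a and Oasl1 below it, so most shares of cells cannot be read as expression cell by cell. The background cells were deeper, with a median of 5162 UMIs before thinning, and leukocytes express many members themselves. They were pooled over libraries: of 260 before thinning, 86 and 80 came from the aged and 2 and 2 from the juvenile libraries. Intervals here cover counting error only.

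The summed levels of the type I and gamma members moved with age and treatment. Juvenile ECs were low in both. Aged ECs were high in the gamma members, while their type I sum was close to the adult one and changed side with the scaling (log2 ratio -0.05, and 0.26 under library totals alone), and of its 22 members 13 were higher and 6 lower (37.6% and 36.0% of all genes). PTH libraries were a little lower in both and alendronate libraries a little higher in the type I members. The 22 type I members summed to 2314 and 2210 CPM in the adult, 1435 and 1441 in the juvenile, 2160 and 2198 in the aged, 2021 and 2093 in the PTH and 2620 and 2599 in the alendronate libraries. The 21 gamma members summed to 1246 and 1254 CPM in the adult, 662 and 672 in the juvenile, 2651 and 2672 in the aged, 964 and 1022 in the PTH and 1262 and 1209 in the alendronate libraries. For the gamma sum the aged and juvenile libraries lay far outside the adult pair, while the alendronate pair overlapped it.

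**Figure D1:**
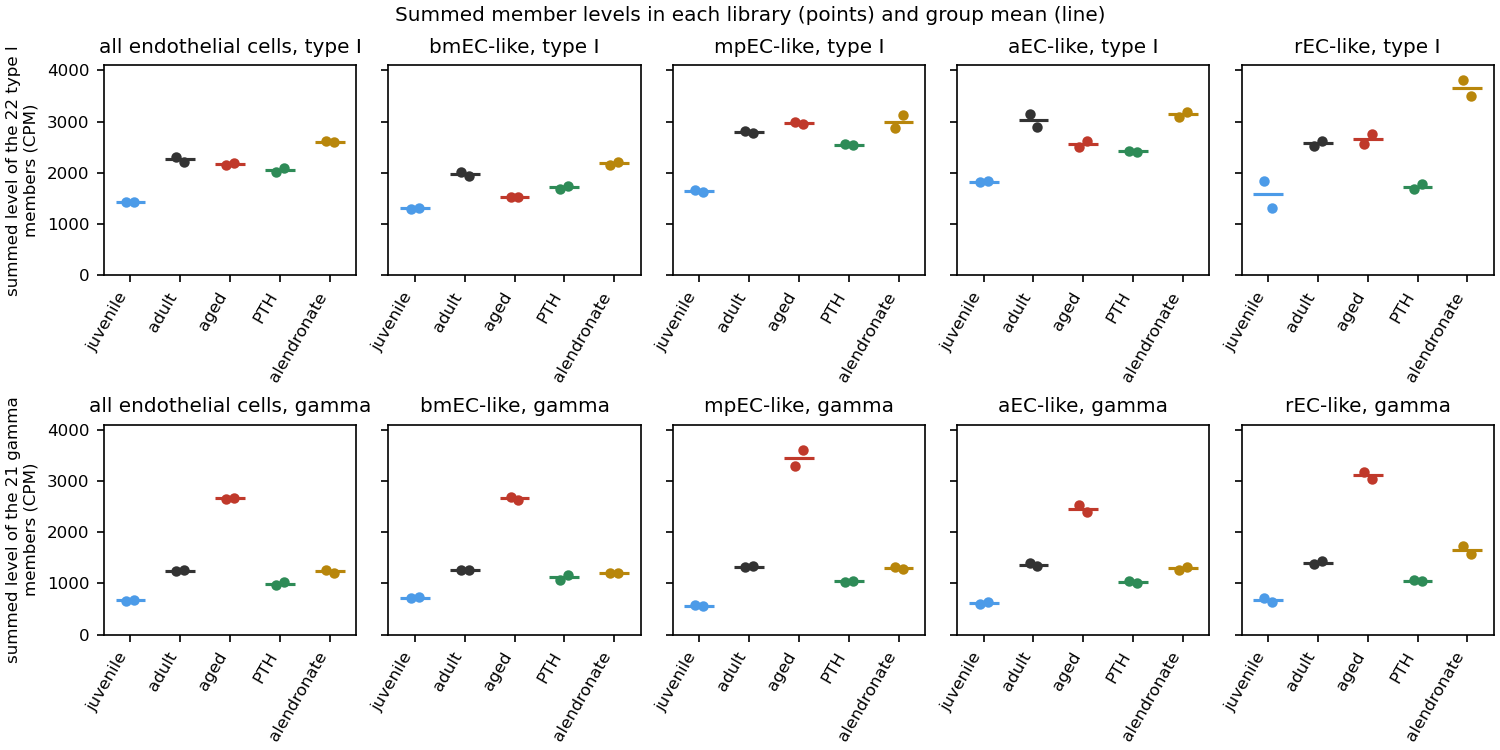
Summed level (CPM) of the 22 type I members (top) and the 21 gamma members (bottom) in each library (points) with the group mean (line), over all ECs and within 4 classes. The aged gamma sums stand above all other groups in every panel, while the aged type I sums, with TMM scaling, lie near or below the adult ones.

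The endothelial classes differed in the chemokines and in several type I members. The sinusoidal bmEC-like cells were high in the Cxcr3 chemokines and low in members such as Rsad2 and Ifit1, and the mpEC-like cells were high in the chemokines and, as clustered here, in Rsad2. The arterial and type R cells were low in Cxcl9 and high in Ifit1. Over 10 libraries, Cxcl9 averaged 189 CPM (SD 203) in bmEC-like, 187 (SD 299) in mpEC-like, 32.5 (SD 30.6) in rEC-like and 10.6 (SD 9.89) in aEC-like cells. Within a library, the level of Cxcl10 in both bmEC-like and mpEC-like cells exceeded that in both aEC-like and rEC-like cells in 10 of 10 libraries, and that of Cxcl9 in 8 of 10. This order of Cxcl10 rests on few UMIs: rEC-like cells had 0 in both adult and both juvenile libraries. In bmEC-like cells of juvenile replicate 2, 72 of 106 Cxcl10 UMIs lay in 1 cell. The aged libraries were the high end of the wide Cxcl9 SDs, and the juvenile ones the low end in bmEC-like and mpEC-like cells. In rEC-like cells PTH replicate 1, with 1 Cxcl9 UMI, lay below the juvenile libraries. Levels set between classes were scaled together, so they differ slightly from those within a class.

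Each class was set against all the remaining ones in a fit that blocked on library, calling an adjusted p under 0.05 and a change of over 1 on the log2 scale. Members named as leading, or as the highest or largest changes, in this and later tests had a mean of at least 5 CPM. In bmEC-like cells 4 members were called higher (8.25% of all 12724 genes were) and 9 lower (8.03%), with Cxcl9 at 2.20 ± 0.17 (SE, adjusted p = 9.92e-16), Cxcl10 at 2.07 ± 0.22 and the GTPase Gm4951 at 1.43 ± 0.15 the highest. The lower ones were led by Rsad2 (-2.32 ± 0.15), the antiviral sensor-like gene Oasl1 (-2.01 ± 0.20), Ifit1 (-1.72 ± 0.16) and Ifit2 (-1.58 ± 0.16). In mpEC-like cells 4 members were higher (2.88% of genes), among them Cxcl10, Cxcl9 and Rsad2 (1.17 ± 0.12), and none was lower (3.65%). With the members among the clustering features, only Cxcl11 was still called in mpEC-like cells: Rsad2 was at 0.70 and Cxcl10 at 0.29, and Cxcl9 was no longer over 1.

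In aEC-like cells Ifit1 (1.16 ± 0.12) and Irf7, the transcription factor that amplifies type I interferon genes (1.12 ± 0.12), were higher, against 6.06% of genes. Cxcl10 (-4.03 ± 0.44) and Cxcl9 (-3.27 ± 0.28) were the 2 lower members there, against 7.72%. In rEC-like cells 7 members were higher (7.03% of genes) and 3 lower (7.69%), with Ifit1 (1.78 ± 0.13) and the guanylate-binding proteins Gbp5 (1.47 ± 0.13), Gbp2 (1.27 ± 0.09) and Gbp4 (1.24 ± 0.12) leading, and Gm4951 (-2.05 ± 0.24), Gm12250 (-1.54 ± 0.25) and Cxcl9 (-1.02 ± 0.26) below. At resolution 0.5, 13 members were higher and 2 lower in rEC-like cells (911 and 1296 of all 12719 genes were). In pEC-like cells 2 members were lower (3.50% of genes), Tgtp1 and Ifit1, and 5 were without adult replicate 1. No UMI of Cxcl11 was found in the aEC-like, rEC-like or pEC-like sums.

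The 4 larger classes were also ordered library by library. bmEC-like cells were the lowest class in at least 8 of 10 libraries for 11 of 22 type I and 5 of 21 gamma members (10.7% of all genes), among them Ifit1, Isg15, Irf7 and Rsad2, each in 10 of 10. They were the highest in at least 8 for Parp14, Cxcl9, Gm4951, Ifi47 and Irgm2 (the share of all genes was not counted). mpEC-like cells were the highest in at least 8 for 6 type I members (Bst2, Dhx58, Ifi44, Rsad2, Rtp4 and Zbp1) and the gamma member Irgm1 (4.75% of all genes). rEC-like cells were the highest in at least 8 for Gbp2, Gbp3, Gbp4, Gbp5 and Gbp7 (7.18% of all genes). Isg15 averaged 72.7 CPM (SD 26.5) in bmEC-like, 178 (SD 50.2) in mpEC-like, 198 (SD 113) in rEC-like and 258 (SD 76.2) in aEC-like cells. Within a library, its level was lowest in bmEC-like cells in 10 of 10 and highest in aEC-like cells in 8 of 10. Rsad2 averaged 37.9 CPM (SD 18.6) in bmEC-like and 268 (SD 133) in mpEC-like cells. Iigp1 ran the other way and was highest in bmEC-like cells (396 CPM, SD 251) and lowest of the 4 in aEC-like cells (187 CPM, SD 107).

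**Figure D2:**
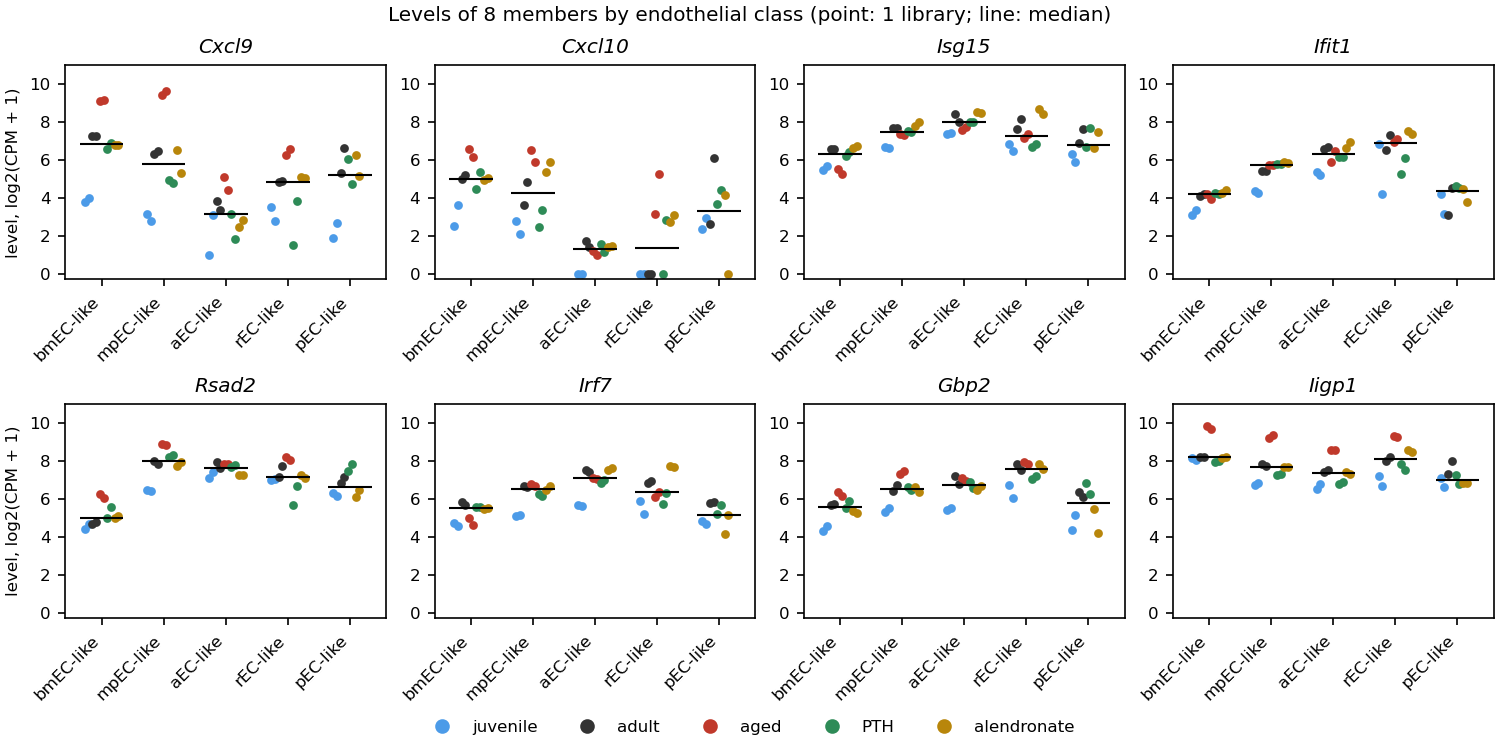
Level of 8 members, log2(CPM + 1), in 5 endothelial classes; each point is 1 library, coloured by group, and the line is the median over libraries. Cxcl9 and Cxcl10 are high in bmEC-like and mpEC-like cells, Isg15, Ifit1, Rsad2 and Irf7 are low in bmEC-like cells, and Gbp2 is highest in rEC-like cells.

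The comparison of 3 with 12 weeks asked which members change as bone matures. In juvenile ECs 21 of 22 type I and 21 of 21 gamma members fell, and none rose, against 20.4% of all 15958 genes that fell and 20.4% that rose. The median change was -0.90 (log2) for the type I and -1.41 for the gamma members, against -0.002 over all genes. The exception was Ddx58, an RNA sensor, at 79.8 and 74.7 CPM in the juvenile and 86.7 and 78.7 in the adult libraries.

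Gm12250, an immunity-related GTPase, was at 0.952 and 1.42 CPM in the juvenile and 16.4 and 17.6 CPM in the adult libraries (-3.84 ± 0.14, adjusted p = 1.23e-10). Cxcl9 was at 10.1 and 12.4 CPM in the juvenile and 97.8 and 105.3 CPM in the adult libraries (-3.18 ± 0.12). Zbp1, a sensor of Z-form nucleic acids, was at 2.68 and 2.46 against 19.4 and 17.1 CPM (-2.83 ± 0.13). In each of these members both juvenile libraries were far below both adult ones. Nlrc5, an activator of MHC class I genes, fell by 2.61 on the log2 scale. The more abundant antiviral members fell less: Isg15 was at 70.4 and 72.6 CPM in the juvenile and 155 and 150 CPM in the adult libraries, and Bst2 at 605 and 593 against 888 and 819 CPM.

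Within classes the members also lay lower at 3 weeks. There fell 38 members in bmEC-like (19.3% of genes), 40 in mpEC-like (13.7%) and 36 of 41 tested in aEC-like cells (7.60%), and none rose (18.9%, 14.2% and 7.23% of genes did). In rEC-like cells, of which juvenile bone had few, 10 of 41 fell and none rose (1.67% and 1.68% of genes), and 6 did without adult replicate 1, adult replicate 2 or juvenile replicate 1 and 2 without juvenile replicate 2. Bst2, Ifit2, Irf7, Isg15, Rtp4, Gbp2, Gbp3, Gbp4 and Irf1 fell in all 4 classes, as did 1.00% of the 9699 genes tested in all 4. In pEC-like cells 13 of 29 tested members fell (2.44% of genes), led by Cxcl9 (-3.99 ± 0.58) and Gm4951 (-3.21 ± 0.43).

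The fall was not equal in sinusoids and metaphyseal capillaries. Gm4951 was at 4.57 and 6.61 CPM in juvenile mpEC-like cells, against 88.8 and 81.9 in the adult ones, and the change in bmEC-like minus that in mpEC-like cells was 3.00 ± 0.19 (log2, adjusted p = 1.04e-20). Iigp1 was at 111 and 120 CPM in juvenile and 237 and 217 CPM in adult mpEC-like cells. In bmEC-like cells Iigp1 was at 273 and 260 CPM in the juvenile and 280 and 279 CPM in the adult libraries, and the difference of the changes was 0.91 ± 0.08. Of 43 members, 10 had a higher change in bmEC-like than in mpEC-like cells and 2 a lower one (4.59% and 5.10% of 12855 genes).

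The comparison of 75 with 12 weeks asked what changes in old bone. The gamma members rose as a block: 20 of 21 were higher in aged ECs and none lower, with a median of 1.15 (log2). The type I members split, with 13 higher and 6 lower and a median of 0.35. Much else differed as well, since 37.6% of all genes were higher and 36.0% lower, with a median of 0.03. Scaled by library totals alone, in place of TMM factors, the median over all genes was 0.351, 66.6% of called genes were higher in place of 51.1%, and the medians were 1.47 for the gamma and 0.67 for the type I members.

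Among the gamma members that rose most were some of the guanylate-binding proteins, which attack the membranes of intracellular microbes, while others of the family (Gbp2 by 0.61, Gbp3 by 0.82) rose less than the gamma median. Gbp4 was at 53.5 and 53.2 CPM in the adult and 252 and 273 CPM in the aged libraries (2.30 ± 0.07, adjusted p = 1.83e-12), and Gbp5 at 9.27 and 9.62 against 39.8 and 37.5 CPM (2.03 ± 0.09). Gbp4 overlaps Gbp8 and Gbp9 in exons on its own strand, so its count may include or lose reads of these copies. Gm12250 was at 16.4 and 17.6 CPM in the adult and 76.0 and 73.9 CPM in the aged libraries (2.14 ± 0.08), and Cxcl9 at 97.8 and 105.3 against 323 and 365 CPM (1.76 ± 0.10). The aged libraries were high and the adult libraries low in all of these, with no overlap. Iigp1 went from 240 and 242 to 540 and 529 CPM, and Irf1 went from 99.2 and 95.2 to 141 and 135 CPM.

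The type I members that fell were Rtp4, Bst2, Dhx58, Ifit3, Isg15 and Irf7, and those that rose included Rsad2, Herc6 and the signalling gene Stat2. Rtp4 was at 208 and 217 CPM in the adult and 89.5 and 96.5 CPM in the aged libraries (-1.19 ± 0.05, adjusted p = 6.92e-11). Bst2 was at 888 and 819 against 521 and 521 CPM (-0.71 ± 0.04). Both fell under library totals alone too, by 0.87 and 0.39. Ifit3 was at 87.7 and 87.2 CPM in the adult and 63.1 and 63.1 CPM in the aged libraries (-0.47 ± 0.05), and the RNA sensor Dhx58 fell by 0.50. Isg15 (155 and 150 against 112 and 121 CPM) was not called under library totals alone (-0.07, adjusted p = 0.176), and Irf7 changed direction there (0.15). Stat2 went from 44.5 and 43.9 to 92.5 and 92.5 CPM, Herc6, a ligase for Isg15, from 18.3 and 18.4 to 46.0 and 47.1 CPM, and Rsad2 from 117 and 104 to 235 and 235 CPM.

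**Figure D3:**
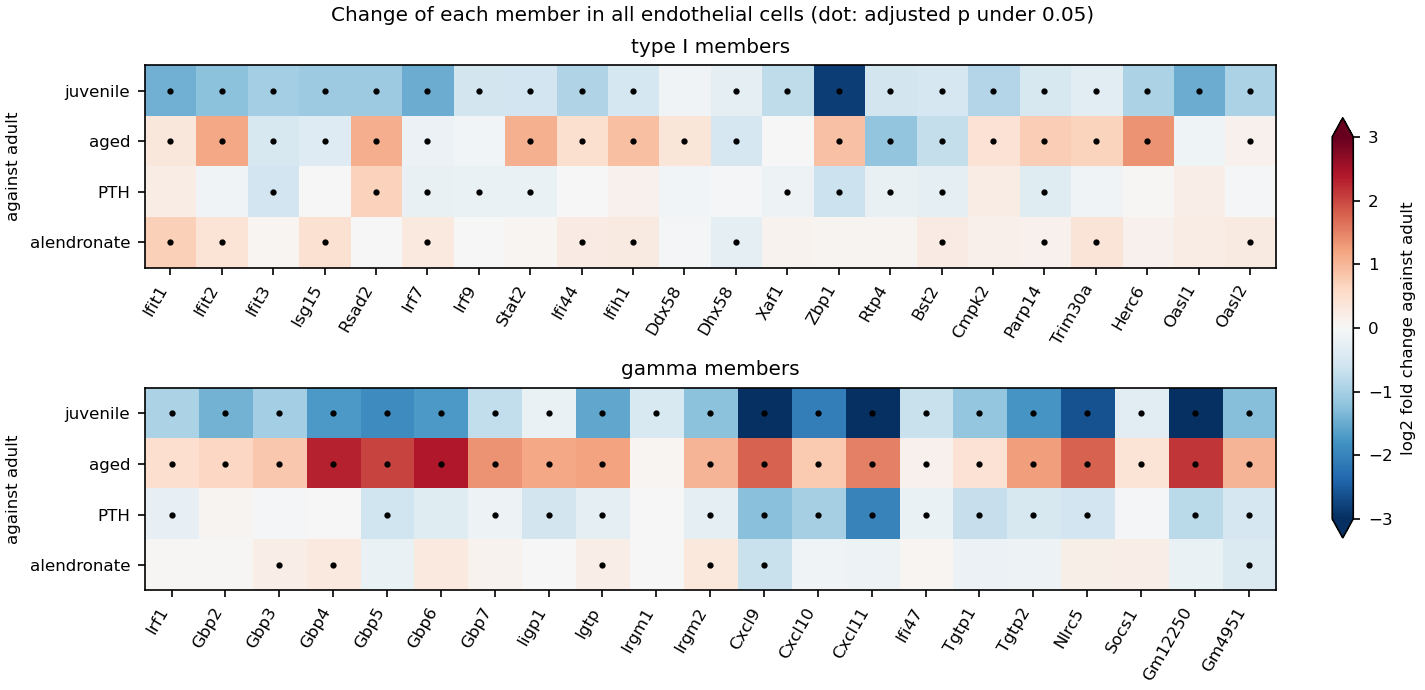
Change of each member (log2, colour) over all ECs in juvenile, aged, PTH and alendronate libraries against the same adult libraries; a dot marks an adjusted p under 0.05, and colours are capped at 3 in either direction. The gamma panel is blue in the juvenile row, red in the aged row and mostly pale blue in the PTH row, while the type I panel is mixed in the aged row.

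The rise of the gamma members in old bone was also present inside the classes. The gamma sum in aged relative to adult cells was 2.11 for bmEC-like, 2.59 for mpEC-like, 1.80 for aEC-like and 2.22 for rEC-like cells, and no aged library overlapped an adult one. The type I sum was 0.771 in bmEC-like, 1.06 in mpEC-like, 0.845 in aEC-like cells and 1.03 in the rEC-like class, and in the last the libraries overlapped. Under library totals alone these type I ratios were 1.02, 1.21, 0.889 and 1.097, so the lower sum of aged bmEC-like cells was not present under that scaling, while the gamma ratios were 2.81, 2.95, 1.89 and 2.36. Without Cxcl9, Cxcl10 and Cxcl11 the gamma sum was still 1.98 in bmEC-like and 2.17 in mpEC-like cells.

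Of the gamma members, 16 of 21 were higher in aged bmEC-like (33.0% of genes), 20 of 21 in mpEC-like (31.6%), 15 of 19 tested in aEC-like (30.2%) and 15 of 19 in rEC-like cells (24.2%), and none was lower in any. 13 of them were higher in all 4 classes: Cxcl9, Gbp3 to Gbp7, Gm12250, Gm4951, Igtp, Iigp1, Irgm2, Nlrc5 and Tgtp2 (17.6% of genes tested in all 4 were). Of the type I members, 8, 10, 7 and 11 were higher and 9, 5, 9 and 4 lower in the same classes (33.1%, 30.5%, 29.2% and 22.9% of genes were lower). Ddx58, Herc6, Ifih1, Parp14, Stat2 and Trim30a were higher in all 4 and Ifit3, Isg15 and Rtp4 lower in all 4 (19.2% of genes were lower in all 4). Under library totals alone the bmEC-like counts were 12 higher and 5 lower type I members, and 70.5% of called genes were higher there, where TMM gave an even split.

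Sinusoidal and metaphyseal cells aged differently. In bmEC-like cells Isg15 was at 89.0 and 90.3 CPM in the adult and 37.5 and 30.3 CPM in the aged libraries (-1.40 ± 0.10), and Irf7 at 52.6 and 47.6 against 24.7 and 18.95 CPM (-1.20 ± 0.11). In mpEC-like cells Irf7 was at 102 and 99.1 CPM in the adult and 102 and 96.6 CPM in the aged libraries, with overlap. The change of Irf7 in bmEC-like minus that in mpEC-like cells was -1.11 ± 0.14 (adjusted p = 9.98e-10). Cxcl9 was at 145 and 147 CPM in adult and 449 and 470 CPM in aged bmEC-like cells, but at 79.7 and 90.8 against 665 and 766 CPM in mpEC-like cells, and the difference of its changes was -1.34 ± 0.11. Gbp4 differed the other way (0.65 ± 0.10), from 29.8 and 30.7 to 154 and 186 CPM in bmEC-like and from 67.6 and 66.6 to 221 and 288 CPM in mpEC-like cells.

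In all, 17 members changed lower and 4 higher in bmEC-like than in mpEC-like cells with age (11.4% and 5.91% of 12855 genes). The 17 became 11 without adult replicate 1 and 10 under library totals alone, where 64.7% of the called differences were higher in bmEC-like cells in place of 34.2%. In rEC-like cells the largest rises were those of Gm12250 (3.53 ± 0.45), Gbp6 (3.06 ± 0.50), Tgtp2 (2.87 ± 0.41) and Gm4951 (2.79 ± 0.37). Tgtp1 and Tgtp2 are near-identical copies, so their separate values are uncertain.

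**Figure D4:**
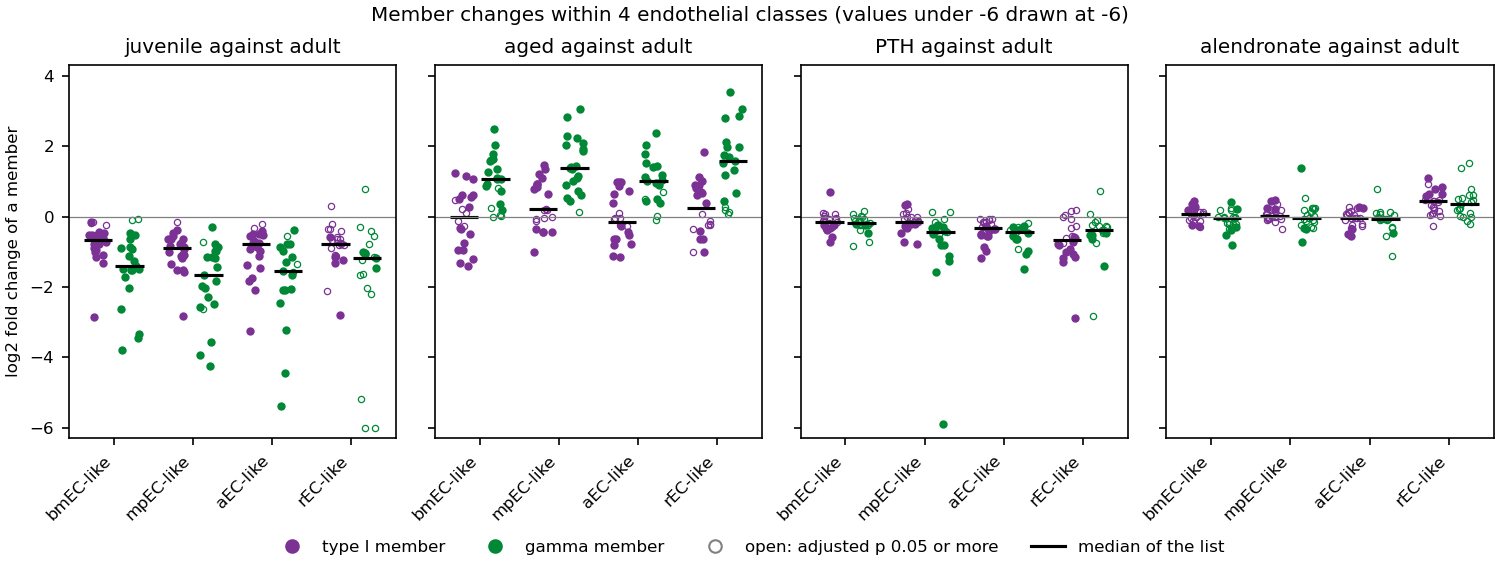
Log2 change of each member within 4 classes against adult, 1 panel per group; filled points passed an adjusted p of 0.05, bars are list medians, and 2 values under -6 are drawn at -6. The aged gamma medians lie at 1.08, 1.39, 1.01 and 1.58, the type I medians between -0.14 and 0.23, and the rEC-like alendronate medians are the highest of that panel.

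Markers of leukocytes and of the dissociation response moved with age as well, and mitochondrial UMIs were 2.72 and 2.84% in the aged libraries against 1.24 to 1.51% in the others, whose part was not tested. In mpEC-like cells the 7 macrophage markers, of which 5 or 6 had counts, summed to 6.98 and 8.40 CPM in the adult and 10.1 and 13.9 CPM in the aged libraries. The 10 T and NK cell markers, of which 1 to 3 had counts, summed to 2.79 and 3.15 against 0.297 and 0.263 CPM. The 9 haematopoietic markers, of which 7 or 8 had counts, summed to 39.1 and 54.9 against 85.7 and 99.2 CPM, and their part in the member levels was not tested. The genes of the dissociation response, which enzymatic isolation can switch on, summed to 1656 and 1673 CPM in the adult, 910 and 854 in the aged, 974 and 935 in the juvenile, 1675 and 1524 in the PTH and 2027 and 2030 in the alendronate libraries, and their part was not tested either.

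The comparison of PTH-treated with adult mice asked how an anabolic treatment acts on the vessels. PTH libraries were lower in the gamma members: 15 of 21 fell and none rose, with a median of -0.36. Of the type I members 9 fell and Rsad2 alone rose, with a median of -0.09. Within classes Rsad2 was called in both directions. Over all genes 13.0% fell and 12.8% rose. Cxcl9 was at 40.6 and 43.6 CPM in the PTH and 97.8 and 105.3 CPM in the adult libraries (-1.26 ± 0.11, adjusted p = 9.50e-07). Gm12250 was at 9.13 and 9.98 against 16.4 and 17.6 CPM (-0.81 ± 0.09), and Rsad2 at 162 and 189 against 117 and 104 CPM (0.68 ± 0.07). The PTH libraries were on 1 side of the adult pair in each of these.

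bmEC-like cells made up 28.2 to 34.1% of PTH and 48.9 to 49.5% of adult ECs (the part of class make-up in the change over all ECs was not tested). Within classes, 10 members fell in bmEC-like (4.33% of genes), 21 in mpEC-like (8.09%), 22 in aEC-like ECs (4.15%) and 17 in the rEC-like class (3.72%). Members that rose numbered 1, 2, 0 and 0 in these classes (5.71%, 7.81%, 3.69% and 3.27% of genes). Ifit3, Xaf1 (a pro-apoptotic factor), Cxcl9, Iigp1 and Irf1 fell in all 4 (0.773% of genes). At resolution 0.5 the change of Irf1 in rEC-like cells was 0.05. Ifit3 was at 36.5 and 36.5 CPM in PTH and 60.02 and 59.71 CPM in adult bmEC-like cells (-0.71 ± 0.09), and at 93.9 and 87.7 against 179 and 176 CPM in aEC-like cells. Cxcl9 was at 31.2 and 27.5 CPM in PTH and 79.7 and 90.8 CPM in adult mpEC-like cells (-1.57 ± 0.18), and at 91.2 and 113 against 145 and 147 CPM in bmEC-like cells (-0.47 ± 0.07). The difference of these changes was 1.13 ± 0.17 (adjusted p = 3.93e-07).

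DESeq2 called 6, 10, 12 and 10 lower members in bmEC-like, mpEC-like, aEC-like and rEC-like cells. Of all genes it called 257 of 13649, 426 of 12054, 174 of 11371 and 198 of 9933 lower, also fewer than edgeR did. Of the edgeR counts, that in mpEC-like cells was 11 without PTH replicate 2 and 12 without adult replicate 2, that in aEC-like cells 9 without PTH replicate 2 and 13 without adult replicate 1, and that in bmEC-like cells 6 without adult replicate 1. That in rEC-like cells was 10, 10 and 8 without PTH replicate 2, adult replicate 1 and adult replicate 2, and 2 at resolution 0.5 (86 of all 8292 genes). PTH replicate 1 held 128 rEC-like cells and PTH replicate 2 held 675. In rEC-like cells 12 of 22 type I members fell, as many as in aEC-like cells, and the type I sum was 0.670 of the adult one. Isg15 was there at 104 and 111 CPM in the PTH and 198 and 284 CPM in the adult libraries, and Irf7 at 52.1 and 77.0 against 112 and 120 CPM. The 5 highest rEC-like cells held 37.5 and 15.2% of the Isg15 UMIs in the PTH and 24.1 and 29.4% in the adult libraries. In bmEC-like and mpEC-like cells the changes of 5 members were higher in the former (3.65% of genes), and without PTH replicate 2 only 1 was.

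The comparison of alendronate-treated with adult mice asked the same of an antiresorptive treatment. Changes were small: 10 type I members rose and 1 fell, and 4 gamma members rose and 2 fell, with medians of 0.14 and 0.03, against 12.7% of genes that rose and 10.0% that fell. Ifit1 was at 62.4 and 62.4 CPM in the alendronate and 35.8 and 40.3 CPM in the adult libraries (0.72 ± 0.08, adjusted p = 4.13e-05), and Isg15 at 212 and 206 against 155 and 150 CPM (0.46 ± 0.05). Cxcl9 was at 71.9 and 55.6 against 97.8 and 105.3 CPM (-0.67 ± 0.10). Without adult replicate 2, 8 members rose in place of 14. Of the 4 larger classes, Ifit1 was highest in rEC-like cells in 6 and in aEC-like cells in 4 of 10 libraries. rEC-like cells were 16.6 to 17.2% of alendronate and 5.90 to 6.21% of adult ECs (the part of class make-up in the change over all ECs was not tested).

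Within classes, type R cells showed rises among the type I members. In rEC-like cells 6 type I members rose and none fell (1.27% and 1.25% of genes), and the type I sum was 1.42 times the adult one. DESeq2 called 2 type I members and 61 of all 9933 genes higher there. Irf7 was at 210 and 204 CPM in the alendronate and 112 and 120 CPM in the adult libraries (0.83 ± 0.14, adjusted p = 0.000171), and Bst2 at 1368 and 1246 against 850 and 683 CPM (0.77 ± 0.11). Ifi44 was at 57.5 and 54.0 against 26.7 and 24.9 CPM (1.11 ± 0.23). These libraries did not overlap. The count was 2 without adult replicate 1 and 3 without alendronate replicate 1. In bmEC-like cells 6 members rose and 6 fell (10.2% and 8.27%), in mpEC-like cells 5 and 3 (7.35% and 5.03%; 3 rose without alendronate replicate 2) and in aEC-like cells 2 and 4 (5.61% and 4.39%; 1 fell without adult replicate 1 or alendronate replicate 1). Bst2 alone rose in all 4 classes (0.536% of genes).

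Set directly against alendronate, PTH libraries were lower in 15 type I and 17 gamma members and higher in Rsad2 alone (13.9% of genes were lower and 11.6% higher). Within classes, 13 members were lower and 2 higher in bmEC-like cells (8.15% and 7.64% of genes), 18 and 2 in mpEC-like cells (12.0% and 9.52%) and 19 and 1 in the aEC-like class (6.67% and 5.24%). In rEC-like cells, 29 of 41 tested members were lower under PTH and none higher (2.97% and 2.31% of genes), with medians of -1.003 and -0.736 for the type I and the gamma members. DESeq2 called 17 lower there (138 of all 9933 genes), and 14 were lower at resolution 0.5 (92 of 8292 genes). The 29 became 17 without PTH replicate 2 and 18 without alendronate replicate 1. Isg15 was at 104 and 111 CPM in PTH and 409 and 336 CPM in alendronate rEC-like cells (-1.77 ± 0.15, adjusted p = 2.16e-10). Gbp4 was at 108 and 113 against 147 and 143 CPM there. Between bmEC-like and mpEC-like cells, 8 members had a higher change in the former (4.07% of genes), which became 3 without PTH replicate 2 or alendronate replicate 1 and 5 without alendronate replicate 2. Doses and schedules of the treatments differed.

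Cxcl10 rested on few cells, which limits what its level can show. In mpEC-like cells it was called higher under alendronate (1.38 ± 0.23, adjusted p = 2.94e-05), at 41.4 and 60.3 CPM in the alendronate and 11.9 and 27.9 CPM in the adult libraries. Of the 231 Cxcl10 UMIs in mpEC-like cells of alendronate replicate 2, 167 lay in 1 cell and 92.6% in 5 cells, and of the 170 in replicate 1, 113 lay in 1 cell. Without the 1% of cells highest in member UMIs the change was -0.31. It was the only member whose alendronate change was called lower in bmEC-like than in mpEC-like cells (0.545% of genes were), and without alendronate replicate 2 there were 2. In adult bmEC-like cells the 281 and 313 Cxcl10 UMIs lay in 98 and 95 cells, of which the 5 highest held 39.9 and 37.1%. The concentration of Cxcl9 varied: its 5 highest cells held 14.5 and 13.7% of its UMIs in adult bmEC-like cells and 34.5 and 28.5% in aged mpEC-like cells. In mpEC-like cells they held 58.7% in alendronate replicate 1, where 118 of 390 UMIs lay in 1 cell, and 14.8% in alendronate replicate 2. They held 51 of 102 UMIs in PTH replicate 1 and 26.5% in PTH replicate 2, and 76.5 and 76.0% in the juvenile mpEC-like cells, so the Cxcl9 changes of that class rest on few cells in these libraries too. The aEC-like and rEC-like cells held few Cxcl9 UMIs, 16 and 1 in PTH replicate 1. In adult replicate 1, 15 of 35 aEC-like UMIs lay in 1 cell, and in aged replicate 2, 52 of 159 rEC-like UMIs did.

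**Figure D5:**
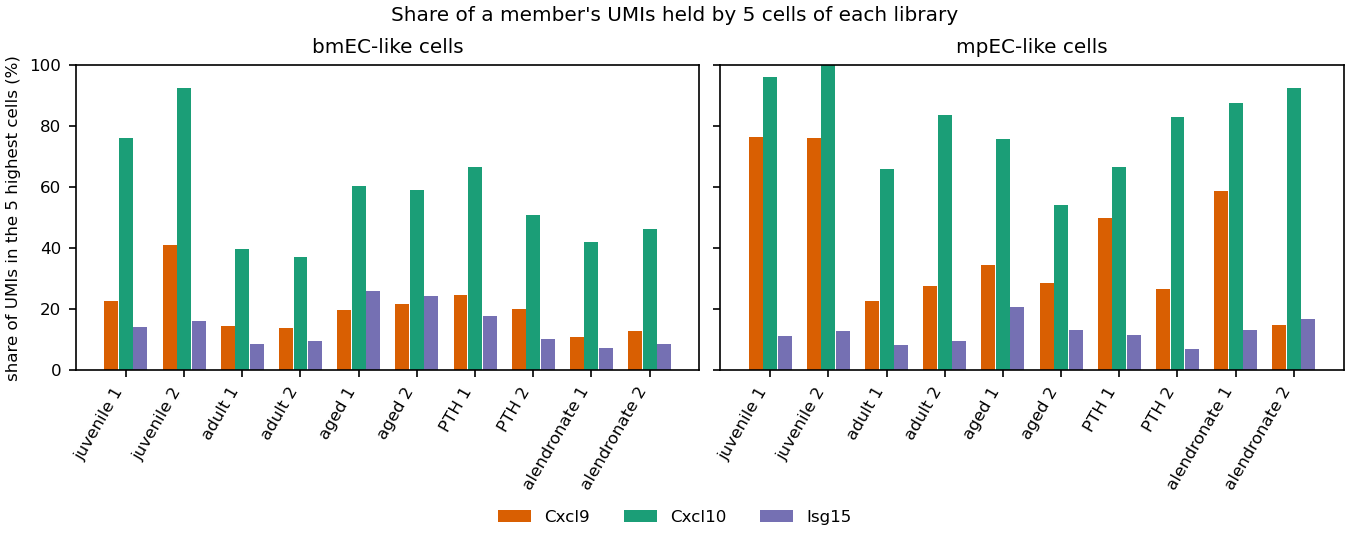
Share (%) of all UMIs of Cxcl9, Cxcl10 and Isg15 that the 5 highest cells held, in bmEC-like and mpEC-like cells of each library. Cxcl10 reaches 87.6 and 92.6% in the alendronate mpEC-like cells and is also high in the juvenile ones, which have few Cxcl10 UMIs. Isg15 stays at or under 26.1% in both classes shown.

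At the level of single cells thinned to 1000 UMIs, Cxcl9 was found in 7.05 and 6.80% of adult, 12.5 and 12.8% of aged, 0.766 and 0.809% of juvenile, 2.85 and 3.26% of PTH and 4.86 and 4.33% of alendronate ECs. The pooled background cells carried Cxcl9 in 0.784% (exact interval 0.0951 to 2.80%), and the juvenile share lay within that interval. Few of these cells were juvenile, so a background for juvenile libraries alone could not be measured. Gbp4 was found in 4.96% (SD 0.388) of adult and 23.5% (SD 1.20) of aged ECs. Aged ECs were the highest and juvenile ECs the lowest for both. Unthinned, with the deeper aged cells counted in full, the median share over members was 28.2% in aged and 13.7% in adult ECs, against 8.36% and 4.66% after thinning.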

How the data were processed

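The authors deposited 10 tables of UMI counts per gene and barcode, 1 per library, made with STAR 2.7.10a, featureCounts 2.0.3 and UMI-tools 1.1.2 on mm10 per the submitters' processing notes; the annotation release and the counting strand are not given in the sources used here, so the values of members with an antisense gene over their exons (Irf7, Cxcl10, Cxcl11, Irf1, Dhx58, Oasl1, Nlrc5, Ifi47, Gbp2) are uncertain, as are those that share exons on their own strand (Igtp with Irgm2, Gbp4, Gbp6, Gbp7, Ifi47, Irf9, Rtp4, Parp14, Herc6, Tgtp1). Members and lists were chosen with earlier results of these data known. Groups came from the labels. Doublets were kept; Scrublet's own threshold marked almost none, so as an alternative the cells with the highest scores were left out (0.8% per 1000 cells of a library). Cells were clustered with scanpy 1.11.5 (2000 features, 30 components, 20 neighbours, Leiden resolution 1) without 220 interferon and MHC genes, and clusters were named from markers. Counts were summed per library and class where at least 20 cells were present, and tested with edgeR 4.0.16 (quasi-likelihood, TMM, low-count filter, Benjamini-Hochberg over all genes) in R 4.3.3. Classes were compared with the library as a block, and the difference between classes by an interaction term. The self-test on simulated counts recovered 99% of 100 genes changed by 1 on the log2 scale for aged against adult (15363 genes tested). For the interaction of class and group it recovered 50% of 100 (12653 genes tested), and 96% at a change of 2. Smaller differences between classes may therefore be missed. The changed genes were well counted, and the spread was set in advance and not taken from these data. Recovery of members with few UMIs was not measured.

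Named genes were the 12 members with the highest mean CPM, up to 4 called members per test and direction with the largest change and a mean of at least 5 CPM, and Cxcl9, Cxcl10, Cxcl11, Irf1, Irf7, Isg15, Ifit1, Ifit3, Stat2, Gbp2 and Iigp1; Ddx58, Herc6 and other genes beyond it were chosen after their values were seen. Replicate libraries differed by more than counting noise (median chi-square per gene 0.622 to 0.875, against 0.455 for counting noise alone). Alternatives were DESeq2 1.42.0, other scalings, filters, clusterings and cell sets, a replicate block, and each library left out. The 276 symbols beginning with U had counts in the aged tables only and were left out. Intervals are exact binomial.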

Additional observations from a re-analysis of the deposited data

Results flagged for a closer look

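The change in bmEC-like minus that in mpEC-like cells passed the interaction test (edgeR, adjusted p under 0.05) for the members below, which are those with the largest differences, up to 4 per comparison and direction and with a mean of at least 5 CPM; further members passed. For juvenile against adult this difference (log2) was 3.00 for Gm4951, 1.34 for Rsad2, 1.05 for Tgtp2, 0.91 for Iigp1, -0.34 for Irgm1 and -0.28 for Rtp4. For aged against adult it was 0.65 for Gbp4, 0.51 for Cmpk2, 0.47 for Rsad2, 0.36 for Gbp3, -1.34 for Cxcl9, -1.18 for Gm12250, -1.11 for Irf7 and -0.95 for Ifit2.

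For PTH against adult it was 1.30 for Cxcl10, 1.13 for Cxcl9, 0.90 for Gm12250 and 0.46 for Ifi47. For alendronate against adult it was -1.51 for Cxcl10. For PTH against alendronate it was 2.81 for Cxcl10, 1.34 for Gm12250, 1.32 for Cxcl9, 0.51 for Irf7 and -0.29 for Rtp4. All 3 Cxcl10 differences rest on few mpEC-like cells: 1 cell held 113 of 170 and 167 of 231 Cxcl10 UMIs in the alendronate libraries, 58 of 104 in adult replicate 2 and 41 of 82 in PTH replicate 2, and the other PTH library held 15 in all.

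Usp18, which removes Isg15 from proteins, was counted at 39.8 and 41.2 CPM in the aged libraries. It has no entry in the other tables, like the other symbols beginning with U, so no comparison was made.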

How the results depend on the processing

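Of 15783 values of named members under the alternatives, 14929 kept their direction and side of the threshold, 192 passed it newly, 657 no longer passed and 5 changed direction. The last were aged Irf7 over all ECs (0.15, library totals alone), alendronate Cxcl10 in mpEC-like cells (-0.43 with members among the clustering features, -0.31 without the 1% of cells highest in member UMIs), PTH Irf1 in rEC-like cells (0.05, resolution 0.5) and Rsad2 in bmEC-like cells, PTH against alendronate (-0.03 without PTH replicate 2, 0.56 without PTH replicate 1). Under library totals alone the summed log2 ratios were 0.26 (aged type I, in place of -0.05), 1.41 (aged gamma), -0.70 (juvenile type I) and -0.96 (juvenile gamma), and the juvenile gamma ratio was -0.87 without the 1% highest cells. The median share of cells over members was 8.52% in adult and 15.8% in aged ECs at 2000 UMIs, and 13.7% and 28.2% without thinning, which is set by depth. DESeq2 called fewer members than edgeR in the following comparisons, and fewer of all genes in the same direction. Under PTH it called 12 lower in aEC-like, 6 in bmEC-like, 10 in mpEC-like ECs and 10 in rEC-like ECs. Under alendronate it called 1 lower in aEC-like, 2 higher in mpEC-like ECs and 2 higher in rEC-like ECs. For PTH against alendronate it called 17 lower in rEC-like cells. Its differences between bmEC-like and mpEC-like cells were 1 (PTH), 2 (PTH against alendronate), 8 (aged, lower) and 0 (alendronate). Library totals alone, with edgeR, gave 10 for aged, lower. In rEC-like cells the PTH count was 2 at resolution 0.5, 4 with classes from each cell's own markers, 11 with at least 1500 UMIs per cell, 8 with no low-count filter and 7 without the 1% highest cells; PTH against alendronate gave 14 at resolution 0.5, and the juvenile count was 6 with own markers and 6 with no filter. Alendronate gave 2 lower in aEC-like cells with no centring and 2 without the 1% highest cells, and in mpEC-like cells 2 higher with members among the features and 3 without the 1% highest cells. Between classes, aEC-like cells had 1 higher member at resolution 0.5 and 4 with own markers, mpEC-like 1 with members among the features, pEC-like 9 lower with own markers and rEC-like 13 higher at resolution 0.5. The cause of these moves was not tested.

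With 1 library left out, the counts ranged as follows. Over all ECs they were 40 to 42 (juvenile), 30 to 33 (aged), 16 to 24 (PTH), 8 to 14 (alendronate) and 24 to 31 (PTH against alendronate). In the same order they were 35 to 38, 22 to 25, 6 to 11, 5 to 7 and 10 to 13 in bmEC-like, 37 to 41, 29 to 31, 11 to 21, 3 to 5 and 15 to 19 in mpEC-like, 28 to 36, 20 to 22, 9 to 22, 1 to 5 (lower) and 13 to 20 in aEC-like, and 2 to 11, 21 to 27, 8 to 17, 2 to 8 and 17 to 29 in rEC-like cells. Differences between bmEC-like and mpEC-like cells ranged over 8 to 11, 11 to 20, 1 to 6, 1 to 2 and 3 to 8. Between classes the ranges were 8 to 9 (bmEC-like), 3 to 4 (mpEC-like), 2 to 3 (aEC-like), 5 to 7 (rEC-like) and 2 to 5 (pEC-like). Deviations of same-numbered libraries correlated at 0.478 between the adult and alendronate groups, and at -0.179 to 0.0325 in the other group pairs. The main fit had no replicate term, and a factor shared by same-numbered libraries was not tested. With the replicate block, 527 of 531 named values kept their call. The counts over all ECs were then 41 (juvenile), 33 (aged), 24 (PTH) and 14 (alendronate). An analysis of the 5 endothelial classes alone, chosen after seeing the data, was among the alternatives. Members with few UMIs (Cxcl11, juvenile Gm12250) are limited by depth, and their fitted changes are no bounds.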

Other observations

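Of 16 antigen presentation genes, all 16 fell in juvenile ECs (20.4% of all genes did) and 14 fell under PTH (13.0%). In aged ECs 9 rose and 6 fell, against 37.6% and 36.0% of all genes. The class II invariant chain Cd74 was at 68.7 and 81.4 CPM in the adult and 894 and 893 CPM in the aged libraries, and H2-Eb1, a class II chain, at 13.3 and 10.67 against 201 and 216 CPM. B2m, the light chain of class I, went the other way, from 6212 and 6019 to 2415 and 2307 CPM. The aged libraries stood apart from the adult ones in all 3. Ifngr1 was at 288 and 283 CPM in the aged libraries, below the adult pair.

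In cells thinned to 1000 UMIs, Cxcl9 was found in 60.6 and 65.7% of the 33 and 35 aged ECs with a Cxcl10 UMI and in 11.8 and 12.0% of the others. The Cxcl10 carriers were deeper before thinning, with medians of 6825 and 6459 UMIs against 5001 and 4884. In aged ECs both genes were found in larger shares of bmEC-like and mpEC-like than of aEC-like and rEC-like cells, and the Cxcl10 share over all ECs (0.770%) lay within the background. Within aged bmEC-like cells Cxcl10 was found in 10.7 and 7.03% of cells with a Cxcl9 UMI and in 1.102 and 1.72% of the others, and within aged mpEC-like cells in 6.60 and 9.40% against 0.882 and 0.496%. Over all aged ECs these shares were 7.19 and 7.77% against 0.670 and 0.596%. Among adult ECs the shares of Cxcl9 by Cxcl10 were 27.3 and 25.5% against 6.84 and 6.63%. Ifit3 was found in 23.0 and 23.1% of adult ECs with an Isg15 UMI and in 4.77 and 5.11% of the others.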
